A study of Mus musculus with 20 samples.

Results

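The 10 genes described here encode enzymes that take glucose out of muscle glycogen and carry it down glycolysis to lactate: Pygm, Hk2, Gpi1, Pfkm, Aldoa, Tpi1, Pgam2, Eno3, Pkm and Ldha. They were chosen by name as the forms of these enzymes used by skeletal muscle, and each symbol was matched to its Ensembl identifier among the 55401 genes of the count matrix. Of these genes, 30096 had a count in at least 1 mouse and 13626 passed the filter on low counts, among them all 10. RNA was measured by bulk sequencing of the gastrocnemius, the large calf muscle, in 20 C57BL/6 mice at the age of 24 months. HK (Haenkenium), a Salvia haenkei extract rich in polyphenols, had been given to 10 of them with their water from 20 months of age for 4 months, with a daily dose of 0.5 mg per kg, and the other 10 went without it. There were 5 animals of each sex per treatment, and they came from 2 sequencing experiments, with 8 mice in batch 1 (2 of each treatment and sex) and 12 in batch 2 (3 of each). The study's young animals were not used here.

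Glycogen phosphorylase releases glucose 1-phosphate from the ends of glycogen chains, and hexokinase adds a phosphate to glucose that enters the fibre from the blood, so that both feed the same chain of reactions. Phosphoglucose isomerase, phosphofructokinase, aldolase and triose phosphate isomerase form the first stage of glycolysis, and phosphoglycerate mutase, enolase and pyruvate kinase belong to the later stage, where ATP is made. Lactate dehydrogenase turns pyruvate into lactate when glycolysis runs ahead of the mitochondria. Fast fibres, of which the mouse gastrocnemius is largely made, rely on this pathway for short bouts of work, and inherited loss of the muscle forms of several of these enzymes causes glycogen storage disease in people.

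Promoter sequence is shown for 3 of the genes, Gpi1 because it differed between the sexes, Hk2 because it varied most between mice, and Pgam2 because it held the rarest of the motifs searched. RefSeq (GRCm38.p6) gave a start site for all 10 genes, in 17 windows, and each window is the 250 bases before the start, written 5′ to 3′ on the strand of the gene, which is the minus strand for all 3. In Gpi1, chr7:34230337-34230586, the capitals mark the E-box CAGCTG, a type of site that myogenic factors are known to bind.
Gpi1: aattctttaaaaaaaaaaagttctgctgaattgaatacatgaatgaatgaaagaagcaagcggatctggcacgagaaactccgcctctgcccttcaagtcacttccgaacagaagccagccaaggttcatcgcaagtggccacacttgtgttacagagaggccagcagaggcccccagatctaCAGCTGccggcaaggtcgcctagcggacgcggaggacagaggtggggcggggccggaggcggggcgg
In Hk2, chr6:82774455-82774704, the capitals mark 2 matches to ACGTG, the core of the element bound by hypoxia-inducible factors, both read from the other strand as CACGT.
Hk2: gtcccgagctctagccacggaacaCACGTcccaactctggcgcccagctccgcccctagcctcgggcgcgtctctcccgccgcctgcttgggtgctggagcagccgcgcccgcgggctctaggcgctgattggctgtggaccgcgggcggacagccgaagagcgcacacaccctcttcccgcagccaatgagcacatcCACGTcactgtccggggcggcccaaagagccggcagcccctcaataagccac
In Pgam2, chr11:5803797-5804046, the capitals mark the match to the MEF2 motif, which is named for a family of muscle transcription factors.
Pgam2: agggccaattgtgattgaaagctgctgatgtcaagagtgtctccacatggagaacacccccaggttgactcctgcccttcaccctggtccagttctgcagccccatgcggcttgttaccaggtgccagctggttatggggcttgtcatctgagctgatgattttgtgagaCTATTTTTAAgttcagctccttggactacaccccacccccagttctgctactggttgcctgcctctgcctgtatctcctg
Both strands were searched, and CACGTG was counted also as ACGTG, which it contains. CAGCTG was present upstream of 4 of the 10 genes (Gpi1, Pgam2, Pkm and Pygm) and in 4271 of all 32851 windows. ACGTG was present upstream of 6 genes (Aldoa, Hk2, Ldha, Pfkm, Pkm and Pygm), in 8 of the 17 windows and 16.6% of all windows. CACGTG was present upstream of 2 genes (Ldha and Pfkm), in 2 of the 17 windows and 6.02% of all windows. The MEF2 motif was present upstream of Pgam2 alone among the 10 genes, in 1 of the 17 windows and 2.92% of all windows. GGGCGG, the letters of a GC box, stood upstream of 6 genes, in 7 of the 17 windows and 32.7% of all windows. TATAAA stood upstream of none (12.4% of all windows). These matches describe letters in the windows and not sites that were measured.

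Totals ran from 13900180 to 30469644 counts a mouse. Even the least abundant of the 10 genes, Hk2, had at least 6288 counts in each mouse, and Aldoa had at least 233649, so that counting error was small beside the differences between mice. Levels are given as CPM (counts relative to the library total, scaled by TMM) for comparisons between mice, and per kilobase of exon for comparisons between genes. The 5 general muscle marker genes, the 10 of fast fibres and the 7 of slow fibres all passed the filter, and the fast fibre markers together made up between 141734 and 206699 CPM per mouse. The sex label of all 20 mice was matched by sex-linked genes. In bulk RNA, fewer cells of a type and less RNA per cell cannot be told apart.

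Per kilobase of exon, Aldoa (muscle aldolase) had the highest level, at 6119 ± 662 CPM per kilobase (SD, n = 20 mice). Eno3, the muscle enolase, followed at 3196 ± 367, Pgam2, the muscle phosphoglycerate mutase, at 1695 ± 220, and Pfkm, the muscle phosphofructokinase, at 1346 ± 155. Pygm, the muscle glycogen phosphorylase, stood at 1197 ± 151, Ldha, the lactate dehydrogenase subunit of fast muscle, at 744 ± 56.4, and Tpi1, the triose phosphate isomerase, at 619 ± 68.7. Pkm, which yields both muscle forms of pyruvate kinase, stood at 604 ± 57.6, Gpi1, the phosphoglucose isomerase, at 141 ± 20.2, and Hk2, the insulin-regulated hexokinase of muscle, at 81.5 ± 20.1. Neighbours in this order were the same in all 20 mice except for Pfkm above Pygm, in 18 of 20, and Tpi1 above Pkm, in 14 of 20, so that Tpi1 and Pkm were not told apart. Gapdh and Pgk1, the enzymes of the 2 steps between Tpi1 and Pgam2, stood at 527 ± 75.7 and 126 ± 15.98 CPM per kilobase. With the length of the longest transcript in place of all exons, Aldoa remained highest at 11498 and Hk2 lowest at 88.2 CPM per kilobase, while Ldha at 1358 stood above Pygm at 1340, and Pkm at 1242 above Tpi1 at 1060. Processed copies of several glycolytic genes, Gapdh above all, lie elsewhere in the genome, and the sources used here do not say how reads with more than 1 match were counted, so that such levels are less certain.

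**Figure D1:**
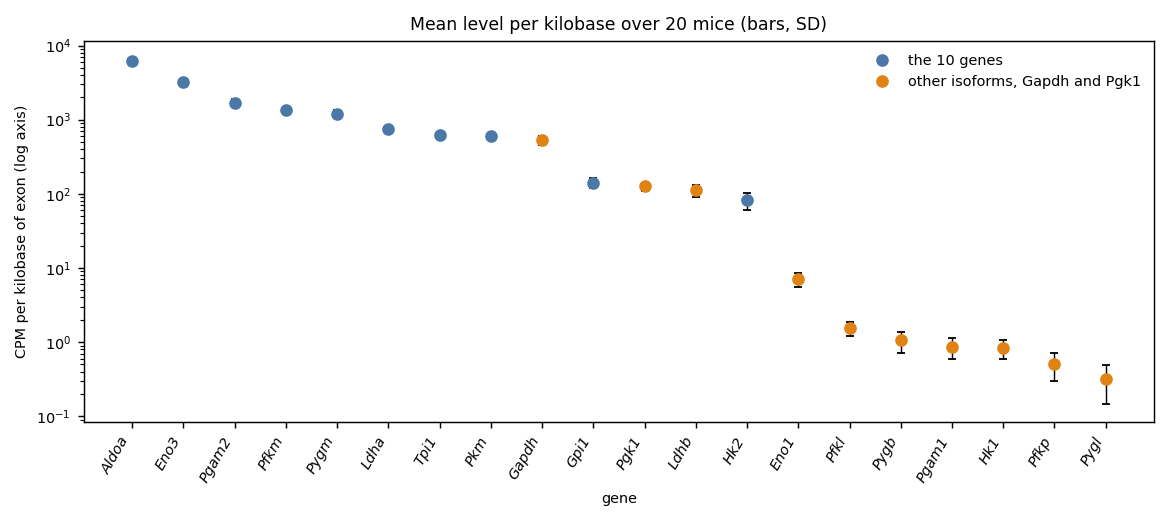
Mean level per kilobase of exon (log axis) over 20 mice of the 10 genes, of Gapdh and Pgk1, and of the other isoforms that passed the filter, with bars for the SD. The 10 genes span 81.5 (Hk2) to 6119 (Aldoa) CPM per kilobase, and the other isoforms except Ldhb lie below all of them.

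The forms of the same enzymes used by other tissues were nearly absent from the muscle. Pygm made up 99.9% ± 0.0443 (SD, n = 20 mice) of the summed level per kilobase of Pygm, Pygl (liver) and Pygb (brain), and Pfkm 99.8% ± 0.0484 of the sum with Pfkl and Pfkp. The share was 99.9% ± 0.0193 for Pgam2 beside Pgam1, 99.8% ± 0.0545 for Eno3 beside Eno1, and 99.0% ± 0.325 for Hk2 beside Hk1. Lactate dehydrogenase was the exception: Ldha made up 86.8% ± 2.68 beside Ldhb, the subunit of heart and of slow, oxidative fibres. This share depends on the length used. Ldha and Ldhb stood at 744 and 112 CPM per kilobase of all exons, and at 1358 and 135 with the longest transcript. The share of Ldha ran from 80.9% in untreated female 3 to 91.0%, and averaged 88.1% ± 2.603 in the 10 males and 85.5% ± 2.14 in the 10 females, with overlapping ranges. Aldoc, the brain aldolase, did not pass the filter.

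The first comparison asked whether HK treatment altered these transcripts in old muscle. None of the 10 genes passed the test: edgeR's quasi-likelihood test, with terms for batch and sex, gave 0 of 10 with an adjusted p under 0.05, where it called 0 of 13626 genes (0%), and 0 of 10 with an unadjusted p under 0.05, where 835 of 13626 genes (6.13%) had one. The fitted log2 difference, HK-treated minus untreated, was above 0 for 9 of the 10 genes, with a median of 0.06 over the 10 and 0.00 over all genes tested. No gene in the whole table had CPM that did not overlap between HK-treated and untreated mice (0%).

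Pygm, which opens the breakdown of glycogen, had between 2943 and 4557 CPM in the 10 untreated mice with a median of 3640.0, and between 3396 and 4604 with a median of 4044 in the 10 HK-treated mice. The ranges overlapped over most of their width, and untreated male 4 and untreated female 3 were lowest. The fitted difference was 0.12 on the log2 scale (SE 0.08, 95% interval -0.05 to 0.28, edgeR adjusted p = 0.832). Hk2, which traps glucose from the blood in the fibre, had between 373 and 514 CPM in untreated mice with a median of 479.9, and between 398 and 947 with a median of 459 in HK-treated mice. The highest value came from HK male 3 alone, the next highest mouse being HK male 4 with 556 CPM. The fitted difference of Hk2 was 0.16 (SE 0.11, 95% interval -0.07 to 0.39, edgeR adjusted p = 0.832), and without HK male 3 it was 0.05 (adjusted p = 0.908).

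Gpi1, which turns glucose 6-phosphate into fructose 6-phosphate, had between 670.0 and 1125 CPM in untreated mice (median 940.3) and between 679 and 1058 in HK-treated mice (median 936). It was the single member with a fitted difference below 0, at -0.03 (95% interval -0.15 to 0.09, edgeR adjusted p = 0.950). Pfkm, the committed step of glycolysis, had between 3083 and 5316 CPM in untreated mice (median 4573) and between 4110.3 and 5226 in HK-treated mice (median 4576). Its lowest value was that of untreated female 3, and the groups overlapped. The fitted difference was 0.07 (95% interval -0.09 to 0.24).

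Aldoa, which splits the hexose, had between 14908 and 20861 CPM in untreated mice (median 17451) and between 15743 and 20929 in HK-treated mice (median 17929). Tpi1, which interconverts the 2 trioses, had between 1334 and 1886 CPM (median 1672) and between 1489 and 2080.1 (median 1696). In both genes the highest HK-treated mouse was HK male 5, and the groups overlapped. The fitted differences were 0.05 (95% interval -0.09 to 0.19) for Aldoa and 0.07 (95% interval -0.07 to 0.20) for Tpi1.

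Among the enzymes of the later stage, Pgam2 had between 995 and 1615 CPM in untreated mice (median 1449) and between 1289 and 1883 in HK-treated mice (median 1439.7). Eno3 had between 3513 and 6396 CPM in untreated mice (median 5457) and between 5067 and 6556 in HK-treated mice (median 5495). The lowest value of both genes was that of untreated female 3, and medians of the groups were close. Pkm had between 2323 and 3356 CPM in untreated mice (median 3159) and between 2649 and 3707 in HK-treated mice (median 3024), and Ldha between 2160.1 and 2742 (median 2355) and between 2368 and 2809 (median 2441). For Pkm the untreated median was the higher and for Ldha the lower, and both sets of ranges overlapped. The fitted differences were 0.08 for Pgam2, 0.03 for Eno3, 0.01 for Pkm and 0.06 for Ldha, with adjusted p from 0.848 to 0.987 by edgeR's quasi-likelihood test.

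As fold changes, the 95% intervals of the 9 genes other than Hk2 lay within 0.903 and 1.22, and that of Hk2 ran from 0.956 to 1.31. Without untreated female 3, the differences of Eno3 and Pkm turned to -0.03 and -0.02, and those of Pfkm, Tpi1 and Pgam2 fell to 0.03, 0.04 and 0.04. Without untreated male 4 the difference of Pygm was 0.08 and that of Aldoa 0.02, and none of these was called.

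**Figure D2:**
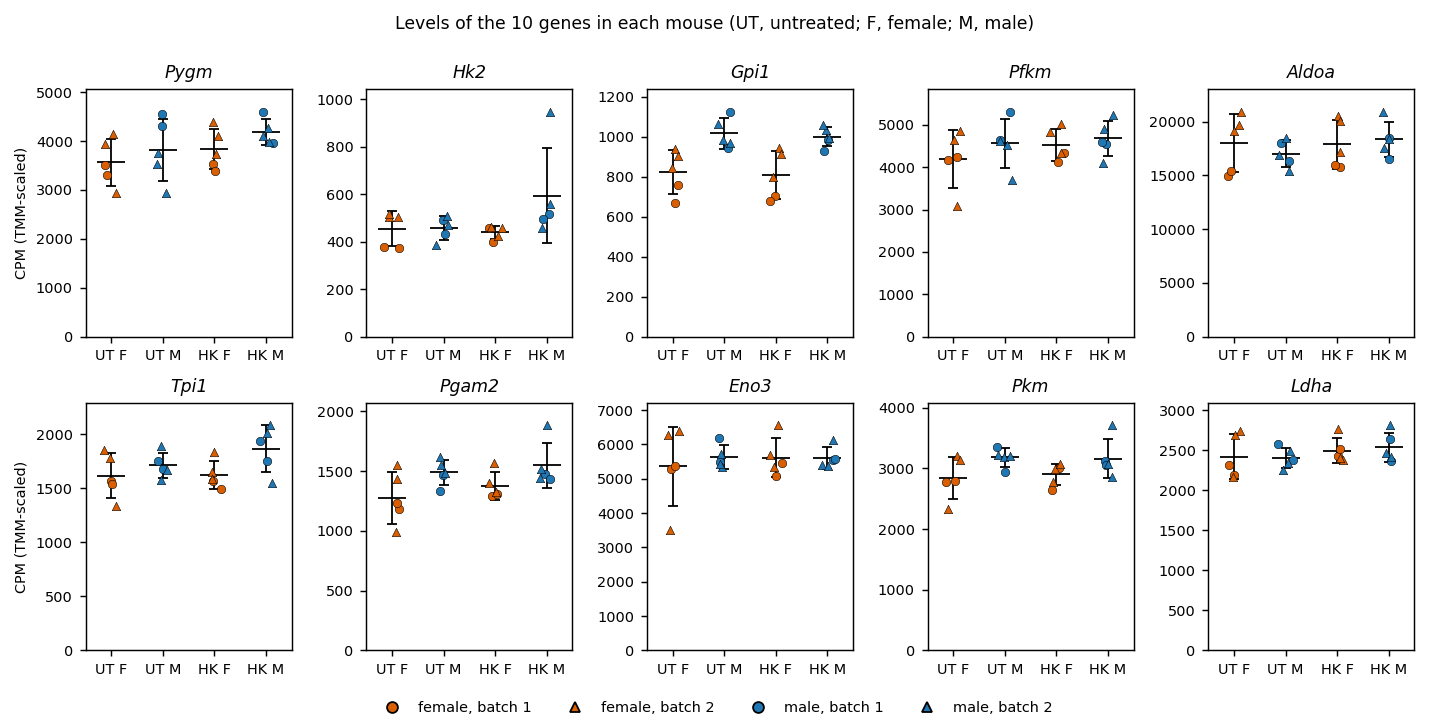
CPM (TMM-scaled) of each of the 10 genes in each of the 20 mice, by treatment and sex, with a dash for the group mean and bars for the SD (n = 5 mice per group); circles are batch 1 and triangles batch 2. HK-treated and untreated mice overlap in every gene, HK male 3 stands apart in Hk2 at 947 CPM, and males lie above females of the same batch in Gpi1.

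Interaction terms asked whether the treatment difference itself depended on sex or batch. For sex, edgeR called 0 of 13800 genes (0%) and gave 483 (3.5%) an unadjusted p under 0.05, and for batch 0 (0%) and 416 (3.01%). None of the 10 genes had an unadjusted p under 0.05 in either. The lowest was that of Hk2 for sex, where the treatment difference was larger in males by 0.40 on the log2 scale (95% interval -0.03 to 0.83, unadjusted p = 0.0666, edgeR adjusted p = 0.998). In the single sexes the treatment difference of Hk2 was 0.36 in males and -0.04 in females, neither called, the male value including HK male 3.

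The second comparison asked how males and females of this age differed, since sex was balanced over treatment and batch. Gpi1 was higher in males, by 1.24-fold (log2 difference 0.32, SE 0.06, 95% interval 0.20 to 0.44, edgeR adjusted p = 6.74e-04). It was the single call among the 10 genes, where 2197 of 13626 genes (16.1%) were called, 1198 of them (8.79%) higher in males. The fitted difference was above 0 in 9 of the 10 genes, Aldoa at -0.01 being the other, with a median of 0.13 over the 10 and -0.01 over all genes. An unadjusted p under 0.05 with a higher level in males was found for 4 of the 10 genes (Gpi1, Pgam2, Pkm and Tpi1) and for 15.6% of all genes.

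In batch 1, Gpi1 stood at 944, 1125, 929 and 985 CPM in the 4 males and at 760.2, 670.0, 703 and 679 CPM in the 4 females. In batch 2 it stood between 966 and 1062 CPM in the 6 males (median 1016) and between 799 and 944 in the 6 females (median 908). Every male was thus above every female of its own batch, as was the case for 285 of 13626 genes (2.09%) in 1 direction or the other. Over both batches the sexes overlapped slightly, the lowest male, HK male 1, having 929 CPM and the highest female, HK female 3, 944. The difference was 0.50 within batch 1 (adjusted p = 0.00305) and 0.19 within batch 2 (adjusted p = 0.0969, short of the threshold), and the difference between these 2 values was not tested. By treatment it was 0.29 in untreated mice alone (adjusted p = 0.119) and 0.32 in HK-treated mice alone (adjusted p = 0.0285), all by edgeR. Leaving out each mouse in turn, it stayed between 0.28 and 0.33 with adjusted p of at most 0.00204.

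Pgam2 had between 1336 and 1883 CPM in males (median 1477) and between 995 and 1566 in females (median 1315). Its difference, 0.20 (95% interval 0.06 to 0.34), just missed the threshold with an edgeR adjusted p of 0.0517, and passed it with DESeq2's Wald test (0.0222), limma voom (0.0455), DESeq2 size factors (0.0454) and no filter on low counts (0.0399). It also passed without untreated female 4 (0.0412), HK male 3 (0.0363) or HK female 5 (0.0420). In the other fits that left out 1 mouse it did not pass, with an edgeR adjusted p of up to 0.147. Nor did it pass by edgeR with no covariates (0.0892), in batch 1 alone (0.0911), batch 2 alone (0.284) or untreated mice alone (0.373). The differences of Pkm (0.14, 95% interval 0.02 to 0.27, adjusted p = 0.114) and Tpi1 (0.14, 95% interval 0.01 to 0.28, adjusted p = 0.147) did not pass. Hk2 had a difference of 0.22 (adjusted p = 0.175), or 0.11 without HK male 3. Pygm (0.11), Pfkm (0.08), Eno3 (0.03), Ldha (0.01) and Aldoa (-0.01) had intervals that took in 0.

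Pygm and Hk2 were called higher in males in batch 1 alone, where 1316 of 13664 genes (9.63%) were called for sex. Pygm had 4317, 4557, 3959 and 4604 CPM in the 4 males of batch 1 and 3507, 3311, 3534 and 3396 in the 4 females, with no overlap (0.34, edgeR adjusted p = 0.0159), as was the case for 2374 of 13626 genes (17.4%) in 1 direction or the other. In batch 2 it had between 2943 and 4273 CPM in the 6 males and between 2944 and 4398 in the 6 females, with a difference of -0.05. Hk2 had a difference of 0.26 in batch 1 alone (adjusted p = 0.0428) and 0.19 in batch 2 alone (adjusted p = 0.546), and over both batches its sex difference was called where no filter was applied (0.22, adjusted p = 0.0132). The difference between the batches in these values was not tested.

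Markers of fibre types and other cells were also compared between the sexes, where 8.79% of all genes tested were called higher in males and 7.33% lower. Of the 7 slow fibre markers, 6 were called lower in males, and their sum ran from 771 to 6333 CPM in males (median 971) and from 2509 to 4691 in females (median 3401). Of the 10 fast fibre markers, 3 were called higher (Tnnt3, Tnni2 and Tnnc2) and 1 lower (Myh2) in males, with sums from 141734 to 192148 CPM in males and from 147656 to 206699 in females. Their fitted differences were above 0 in 5 and below 0 in 5, with a median of 0.06. Of 6 macrophage markers 1 was called higher in males, of 4 adipocyte markers 3 lower, and of 4 nerve markers 2 lower, and of 5 general muscle markers 1 higher (Ckm, edgeR adjusted p = 0.0461), while none of 4 endothelial, 4 red blood cell, 4 fibro-adipogenic and 3 tendon markers was called. In the treatment comparison none of any of these markers was called, and the slow fibre markers had fitted differences below 0 in 7 of 7, with a median of -0.71. Their part in the results was not tested.

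**Figure D3:**
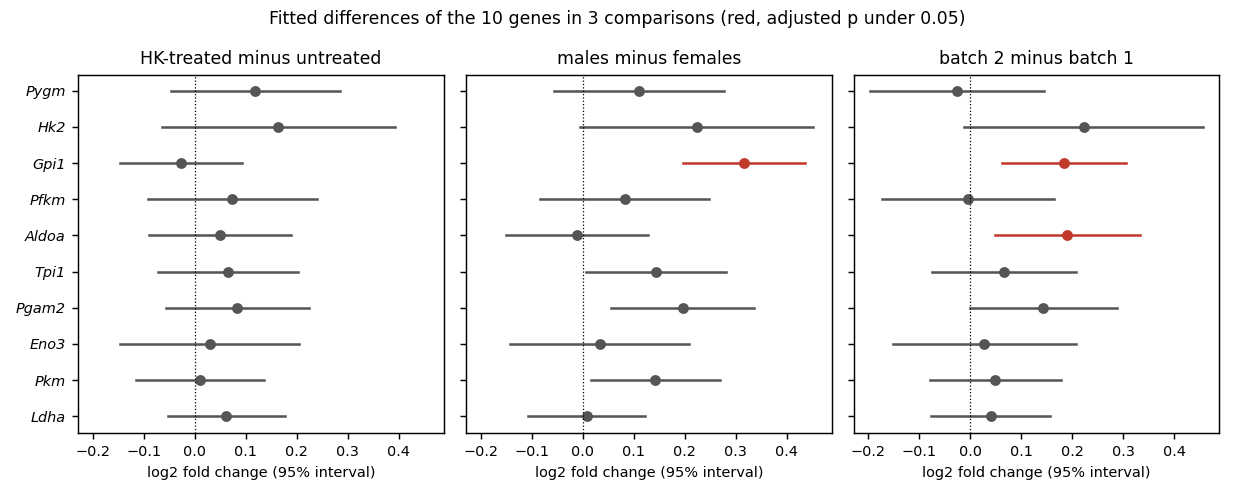
Fitted log2 fold changes of the 10 genes with 95% intervals in 3 comparisons (edgeR, 20 mice), with an adjusted p under 0.05 in red. All 10 intervals take in 0 for treatment, Gpi1 is red for sex at 0.32, and Gpi1 and Aldoa are red for batch at 0.18 and 0.19.

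The third comparison set the mice of batch 2 against those of batch 1, which were different animals in a separate sequencing experiment. Gpi1 (0.18, edgeR adjusted p = 0.0187) and Aldoa (0.19, adjusted p = 0.0341) were called higher in batch 2, which is 2 of 10 genes where 5062 of 13626 genes (37.1%) were called, 2474 of them (18.2%) higher. Aldoa had between 14908 and 18433 CPM in batch 1 (median 16124) and between 15436 and 20929 in batch 2 (median 18787). In females alone the batch difference was 0.35 for Gpi1 and 0.34 for Aldoa, and in males alone 0.04 and 0.06, the latter pair not called. In untreated mice alone neither was called (Gpi1 0.13, adjusted p = 0.367; Aldoa 0.18, adjusted p = 0.319), and without covariates Gpi1 was not (0.16, adjusted p = 0.149). The call of Aldoa was lost in 9 of the 20 fits that left out 1 mouse (untreated female 1, 2, 4 or 5, HK male 2 or 5, or HK female 1, 2 or 5), with an adjusted p of up to 0.0723. Pgam2 was called higher in batch 2 where untreated female 3 was left out (0.18, adjusted p = 0.0118), against 0.14 (adjusted p = 0.108) over all mice. Markers of other cells also moved with batch: all 6 macrophage, 4 red blood cell and 4 fibro-adipogenic markers were called higher in batch 2, as were 2 of 3 tendon markers and 1 of 4 adipocyte markers. Of the muscle markers Acta1 (adjusted p = 0.0494) and, among those of fast fibres, Myh1 (adjusted p = 0.001005) were called higher in batch 2. The macrophage markers summed to between 10.3 and 36.8 CPM in batch 1 and between 30.1 and 125.9 in batch 2. Their part in the batch differences was not tested.

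The spread of the 10 genes between mice was set beside that of all genes tested. After batch, sex and treatment were accounted for, their SD on the log2 scale ran from 0.11 (Ldha) to 0.26 (Hk2), with 0.22 as the median of all genes tested. Hk2 was the single one of the 10 above that median. The median takes in genes with fewer counts, whose SD holds more counting error, and genes of similar level were not compared. Deviations from the median of the 20 mice were shared by several genes in some mice. Untreated female 3 was lowest of all 20 in 6 genes (Pfkm, Tpi1, Pgam2, Eno3, Pkm and Ldha), by up to 0.62 in Eno3, while its Gpi1, Hk2 and Aldoa were not low. Untreated male 4 was lowest in Pygm, Hk2 and Aldoa. HK male 5 was highest in Tpi1, Pgam2, Pkm and Ldha. In HK male 3, Hk2 was 0.85 above the median while the other 9 genes lay between -0.22 and 0.09.

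These mice also differed in cell type markers. Untreated female 3 had the second highest sum of slow fibre markers of the 20 mice (4691 CPM) and 245 CPM of red blood cell markers, where the 20 mice ran from 27.7 to 350.1. Untreated male 4 had the lowest sum of fast fibre markers (141734 CPM) and the highest of macrophage markers (125.9 CPM). Its sum of slow fibre markers was the second lowest (808 CPM). HK male 3 had the lowest sum of slow fibre markers (771 CPM), with 99.6 CPM of macrophage markers and 779.7 CPM of fibro-adipogenic markers, where the 20 mice ran from 144 to 1269. Their part in these deviations was not tested.

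**Figure D4:**
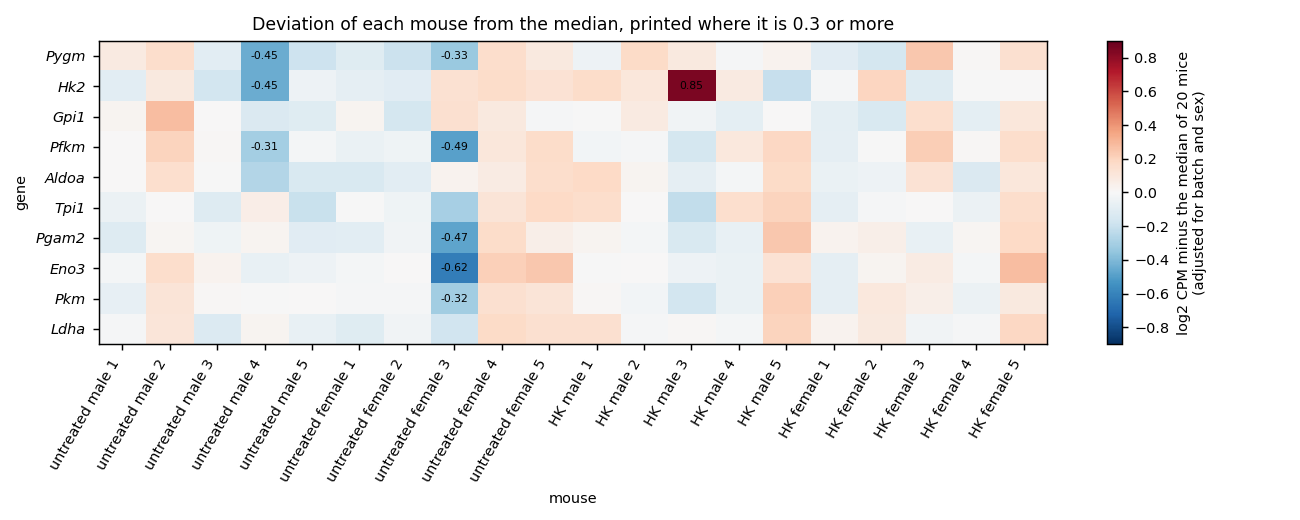
Deviation of each mouse from the median of the 20 mice in log2 CPM, adjusted for batch and sex, for the 10 genes (rows) and the mice (columns), printed where it is 0.3 or more in size. Untreated female 3 is low in several genes, down to -0.62 in Eno3, untreated male 4 is low in Pygm and Hk2, and HK male 3 is high in Hk2 alone, at 0.85.

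Most of the 10 genes rose and fell together from mouse to mouse. Over the 20 mice, with batch and sex removed, Pearson's r with the mean of the other 9 genes was 0.82 for Pfkm, 0.80 for Eno3, 0.77 for Ldha and Pygm, 0.71 for Pkm, 0.67 for Pgam2, 0.65 for Aldoa and 0.62 for Tpi1. It was 0.28 for Gpi1 and -0.02 for Hk2. Without untreated female 3 it was 0.60 for Gpi1, 0.86 for Aldoa and 0.05 for Hk2, and between 0.48 and 0.80 for the others. These values describe mice that share libraries and scaling and carry no test. Over all genes tested, those most like the mean of the 10 were Hhatl (r = 0.90), a muscle gene related to acyltransferases, Pgm1 (0.89), the phosphoglucomutase that links glycogen to glycolysis, Cmss1 (0.88), Gpd1 (0.88), the cytosolic glycerol 3-phosphate dehydrogenase, and Mmab (0.87), an enzyme of cobalamin metabolism.

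Other genes of the pathway were read in 3 lists. In the treatment comparison edgeR called none of them: 0 of 12 tested other glycolytic genes and isoforms (3 above 0 and 9 below, median log2 difference -0.13), 0 of 18 glycogen genes (11 above and 7 below, median 0.09), and 0 of 18 genes of transport and control (15 above and 3 below, median 0.04). Hkdc1, Aldoc and Pklr did not pass the filter. The lowest p belonged to Gys1, the muscle glycogen synthase (-0.11, 95% interval -0.21 to -0.01), Phkb, a subunit of the kinase that activates Pygm (0.17, 95% interval 0.02 to 0.32), and Gpd2, the mitochondrial glycerol 3-phosphate dehydrogenase (0.21, 95% interval 0.02 to 0.40), each with an adjusted p of 0.795. The isoforms of other tissues (Pygl, Pygb, Hk1, Pfkl, Pfkp, Pgam1, Eno1 and Ldhb) had differences from -0.32 (Pgam1) to -0.07 (Pfkl), all below 0 and none called. The transporter Slc2a4, through which insulin and contraction bring glucose into the fibre, stood at 0.00 (95% interval -0.12 to 0.12).

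Between the sexes, 2 of 12 other glycolytic genes, 4 of 18 glycogen genes and 7 of 18 genes of transport and control were called, where 16.1% of all genes tested were (8.79% higher and 7.33% lower in males). Higher in males were Eno1 (0.31, adjusted p = 0.00438), Phka1, a phosphorylase kinase subunit (0.19, adjusted p = 0.0484), the lactate transporters Slc16a1 (0.32) and Slc16a3 (0.47), and the mitochondrial pyruvate carrier subunit Mpc1 (0.21). Slc16a3, which carries lactate out of fast fibres, had between 298 and 416 CPM in males and between 202 and 347 in females, with overlapping ranges (edgeR adjusted p = 3.81e-04). Lower in males were Ldhb (-0.32, adjusted p = 0.0273, and up to 0.0519 where untreated male 2, untreated female 1 or HK male 2 was left out), Ppp1r3d, Stbd1 and Gbe1 of the glycogen list, and Gpd2, Pdk1, Fbp2 and Pfkfb1. Gbe1, the branching enzyme, fell by 0.33 and Stbd1, which binds glycogen, by 0.28 on the log2 scale.

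The largest of these sex differences was in Ppp1r3d, which targets protein phosphatase 1 to glycogen, with 3.86 ± 0.639 CPM in males and 7.90 ± 2.02 in females (SD, n = 10 each; log2 difference -1.01, edgeR adjusted p = 3.01e-05). Fbp2, the muscle fructose bisphosphatase that runs against Pfkm, had 37.2 ± 7.33 CPM in males and 65.2 ± 13.7 in females (-0.82, adjusted p = 1.95e-04). Gpd2 had 217 ± 45.5 and 304 ± 45.9 CPM (-0.51, adjusted p = 6.34e-04), and Pfkfb1, which sets the level of an activator of phosphofructokinase, 40.9 ± 6.21 and 55.9 ± 9.23 CPM (-0.46, adjusted p = 0.00214). Pdk1, a kinase that restrains pyruvate dehydrogenase, had a difference of -0.24 (adjusted p = 0.00239). The ranges of males and females overlapped in Ppp1r3d, Fbp2, Gpd2 and Pfkfb1.

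Between the batches, 7 of 12 other glycolytic genes were called higher in batch 2 and none lower, 6 glycogen genes higher and 7 lower, and 3 genes of transport and control higher and 4 lower, where 18.2% of all genes tested were called higher and 19% lower. Ppp1r3c, another glycogen targeting subunit of protein phosphatase 1, had 371 ± 78.7 CPM in the 8 mice of batch 1 and 995 ± 347 in the 12 of batch 2 (1.42, edgeR adjusted p = 5.47e-05). Eno1 was higher by 0.36, and Epm2a (-0.36), Phkb (-0.43), Ppp1r3a (-0.56) and Tigar (-0.36) were lower in batch 2.

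**Figure D5:**
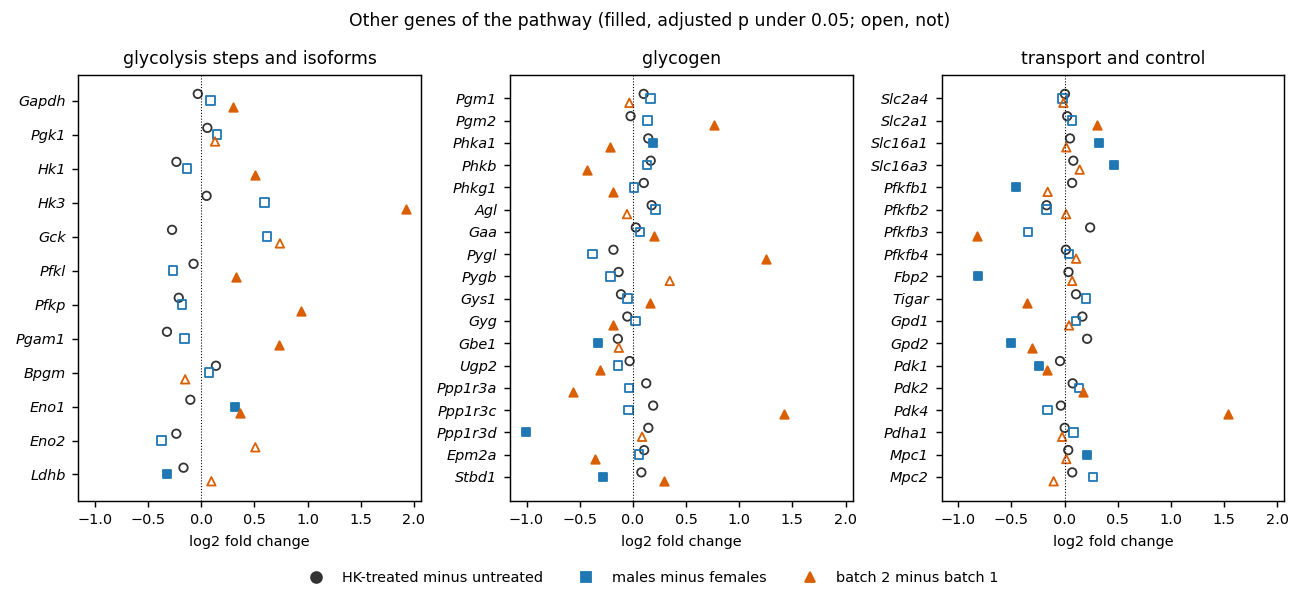
Log2 fold changes of the other pathway genes in 3 lists (edgeR, 20 mice) for treatment (circles), sex (squares) and batch (triangles), filled where the adjusted p was under 0.05. No circle is filled. Among the squares, those of Ppp1r3d at -1.01 and Fbp2 at -0.82 lie farthest to the left, and the triangle of Pfkfb3 also lies at -0.82.

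Positions in GRCm38 were read from GENCODE M21. Gpi1 lies on the minus strand of chromosome 7 at chr7:34201330-34230336, Hk2 on the minus strand at chr6:82725025-82774454, Pgam2 on the minus strand at chr11:5801640-5803733 and Pygm on the plus strand at chr19:6384399-6398459. Aldoa and Ldha share chromosome 7 with Gpi1, Eno3 shares chromosome 11 with Pgam2, and Tpi1 shares chromosome 6 with Hk2. Genes that overlap these on the other strand had few counts beside them: Fam57b, beside Aldoa, had at most 1547 counts in any mouse, Senp1, beside Pfkm, at most 336, and Spsb2, beside Tpi1, at most 96. Gm49759, on the same strand within Pkm, had at most 471. Whether counting used strand is not stated in the sources used here, and reads in these overlaps cannot be assigned with certainty.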

How the data were processed

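Gastrocnemius RNA of 20 mice was depleted of ribosomal RNA and sequenced. The authors ran STAR 2.6.1c (two-pass) against GRCm38.p6 and took genes from GENCODE M25. They deposited 1 matrix of whole-number counts, in which neither library size nor batch nor sex had been corrected for. Checks with FastQC and their own statistics with DESeq2 1.28.1 are named in their methods, while the sources used here name no counting tool and do not say how strand or reads with several matches were handled. Treatment, sex, batch and replicate came from the sample labels, and age and length of treatment from the study's methods. Gene names, positions and exon lengths came from GENCODE M21, an older release on the same build, and the 260 identifiers it does not hold took 0.00127% of the counts. Of 2 identifiers named Aldoa, the one with the most counts was used, the other having at most 19 counts in any mouse.

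The analysis used R 4.3.3, edgeR 4.0.16 (TMM, filterByExpr, quasi-likelihood F test, Benjamini-Hochberg adjustment over all genes tested, threshold 0.05), with batch, sex and treatment in 1 model over all 20 mice. Standard errors and 95% intervals were derived from the F statistic and its degrees of freedom. Interaction terms were added 1 at a time. limma 3.58.1 removed batch and sex from log2 CPM (prior count 2) for values per mouse, and limma voom and DESeq2 1.42.0 served as alternatives. The fit was tested on simulated data. Each mouse is its own animal. No pair of mice of the same treatment, sex and batch agreed within sampling noise (chi-square divided by its degrees of freedom was 8.77 to 54.8). Counting error alone was far below these differences. Such pairs were thus not the same library counted again. The check cannot recognise separate libraries made from the same animal, and pairs across groups were not checked.

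The members and gene lists were chosen with earlier results of these data known. Named genes are the 10 members, the isoforms of other tissues that passed the filter, up to 6 called genes of the other lists per comparison by lowest p (or the 3 lowest p where none was called), and the 5 genes most like the mean of the 10. Gapdh, Pgk1, Slc2a4, Phka1, Slc16a1, Mpc1, Stbd1, Gbe1, Pfkfb3 and the single marker genes fall outside this rule and were named after their values were seen. Promoters came from RefSeq. Same-numbered mice of different groups are different animals. Alternatives tried were fits with no filter, with DESeq2 size factors or its Wald test, with limma voom, with fewer covariates, a replicate block, each batch, sex or treatment alone, each mouse left out in turn, another transcript length and scaling by the total count.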

Additional observations from a re-analysis of the deposited data

Results flagged for a closer look

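In the group of 10 HK-treated mice, Hk2 of HK male 3 stood apart: the gap to the next mouse was 0.621 of the whole range of the group in log2 CPM adjusted for batch and sex, above Dixon's critical value for 10 values. In the group of 10 untreated mice, untreated female 3 stood apart at the low end in Eno3 (0.646 of the range), Pgam2 (0.562) and Pkm (0.517). Each gene was looked at in 2 groups, and chance flags about 1 in 20 groups. The 3 genes of untreated female 3 come from 1 library and are not separate events. No explanation was tested.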

How the results depend on the processing

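No alternative called any of the 10 genes in the treatment comparison (0 of 310 values, lowest adjusted p 0.263), and Gpi1 was higher in males under every alternative, with its call lost in batch 2 alone and in untreated mice alone. Where a count or a sign moved, the cause was not tested, also where fewer mice were fitted. Without the filter on low counts, edgeR called 502 genes for treatment (47 of them below the filter), 314 for the interaction with sex and 225 for that with batch, and DESeq2's Wald test called 7 genes for treatment. Leaving out each mouse gave 0 to 1 calls for treatment, the 1 being without HK female 1. Sex calls numbered 1316 in batch 1 alone, 878 in batch 2 alone, 489 in untreated and 651 in HK-treated mice alone, and batch calls 1497 in females alone and 2192 in untreated mice alone.

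Signs turned only in log2 differences close to 0 or in fits on fewer mice. For treatment, batch 1 alone gave -0.0143 for Pygm, -0.0573 for Pfkm, -0.0450 for Eno3 and -0.00277 for Pkm, batch 2 alone 0.0156 for Gpi1, males alone -0.0112 for Eno3 and -0.0127 for Pkm, and females alone -0.0379 for Hk2 and -0.00826 for Aldoa. For sex, batch 1 alone gave 0.158 for Aldoa, batch 2 alone -0.0506 for Pygm, -0.0178 for Eno3 and -0.0403 for Ldha, untreated mice alone -0.0294 for Ldha, and HK-treated mice alone 0.0453 for Aldoa and -5.55e-04 for Eno3. For batch, Pfkm was 0.00780 with DESeq2 size factors and 0.00780 with its Wald test, males alone gave -0.0200 for Eno3 and -0.00419 for Ldha, females alone 0.177 for Pygm and 0.0819 for Pfkm, and untreated mice alone -0.0376 for Eno3. Leaving out each mouse in turn, the treatment difference ran from -0.0497 to 0.00928 for Gpi1, from -0.0326 to 0.0548 for Eno3 and from -0.0243 to 0.0299 for Pkm. The sex difference ran from -0.0485 to 0.0179 for Aldoa, from -0.0258 to 0.0643 for Eno3 and from -0.0280 to 0.0236 for Ldha, and the batch difference from -0.0592 to 0.0119 for Pygm, from -0.0299 to 0.0359 for Pfkm and from -0.00229 to 0.0772 for Eno3.

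Replicate numbers were not used as pairs in the main fits. Deviations from the group means correlated between same-numbered mice at 0.06 to 0.17 in females and -0.42 to 0.05 in males. Of the 10 values 4 were over 0.1. Numbers 1 and 2 of a sex had the same value because batch 1 held 2 mice per group. No values for mice of unlike number were set beside these, so that the check cannot exclude pairing. A fit with the replicate block called 0 genes for treatment and 2136 for sex, and Pgam2 then passed the threshold for sex (adjusted p = 0.0279). Counting depth was not the limit for the 10 genes, each with at least 6288 counts in every mouse, and a difference inside a gene's interval was not shown to be absent.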
